A study of Mus musculus with 8 samples.

Results

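The 10 genes examined here belong to the system through which neuregulin-1 acts: 5 ligands of the EGF family (*Nrg1*, *Nrg2*, *Nrg4*, *Hbegf* and *Btc*), the 4 ErbB receptors (*Erbb2*, *Erbb3*, *Erbb4* and *Egfr*) and the feedback inhibitor *Errfi1*. They were chosen by name and matched by symbol to 10 of the 53465 Ensembl gene identifiers in the count table. Poly(A) RNA was sequenced from the heart ventricles of E15.5 mouse embryos in 8 libraries, 4 from *Nrg1GOF* and 4 from wild-type (WT) embryos, with 1 ventricle sample each. *Nrg1GOF* embryos carry *Nrg1* inserted at Rosa26, expressed once Cre has acted, together with a Cre driven by *Nkx2.5*, a gene active in cardiac progenitors and their descendants. The sample labels spell this genotype Rosa26Nrg-1;Nkx5.5-Cre, whereas the series title names Nkx2.5-Cre. Whether WT embryos carried either allele alone, and the sex and strain of the embryos, were not given in the sources used here.

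EGF-family ligands are made as membrane-bound precursors, are shed by proteases and bind pairs of ErbB receptor tyrosine kinases. Neuregulin-1 binds ErbB3 and ErbB4. ErbB2 has no known ligand of its own and is the preferred partner of the other receptors, ErbB3 signals mainly through such a partner because its own kinase is weak, and EGFR binds EGF, heparin-binding EGF and betacellulin. In the embryonic heart, neuregulin-1 is released by the endocardium and signals to cardiomyocytes through ErbB2 and ErbB4, a signal needed for trabeculae to form.

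Library totals ranged from 8038641 to 26786039 counts, and *Nrg1GOF* library 4 was the shallowest. Levels were scaled with TMM (trimmed mean of M-values) and are given as counts-per-million (CPM) on the scaled total. Of 15580 genes tested with the quasi-likelihood F-test of edgeR, 28.7% had a Benjamini-Hochberg adjusted p under 0.05 and are described as called. Of the calls, 55.4% were higher in *Nrg1GOF*, a share that scaling by library total moved to 65.4%. Ventricular cardiomyocyte markers dominated, with a summed level of 30496 to 38590 CPM in *Nrg1GOF* and 40540 to 43063 CPM in WT, and 5 of 7 were called lower. All 6 fibroblast and cushion mesenchyme markers and all 6 macrophage markers were called higher, 4 of 8 atrial markers and 4 of 8 endothelial and endocardial markers were called higher, and the epicardial list was mixed, with 3 of 6 higher and 1 lower. Neuronal markers summed to at most 5.52 CPM, and the Schwann cell precursor marker *Sox10* did not exceed 1.67 CPM. WT libraries 1 and 2 stood apart from WT libraries 3 and 4 in red blood cell markers, with sums of 12121 to 12954 CPM against 4373 to 5445 CPM. The same was true of fibroblast and cushion mesenchyme markers, with sums of 4342 to 4354 CPM against 3217 to 3251 CPM. The atrial marker *Myl7* was at 156 to 176 CPM against 88.9 to 106 CPM.

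Among the members, 9 passed the filter on low counts and *Nrg4* did not. Of these 9, 2 were called higher in *Nrg1GOF* (*Nrg1* and *Egfr*), 1 was called lower (*Erbb2*) and 6 were not called. The share called, 33.3%, was close to the 28.7% of all tested genes, so the members were not called unusually often as a group. The median log2 fold change of *Nrg1GOF* over WT was -0.034 for the 9 members and -0.012 for all tested genes. In the same 3 members the libraries of the groups did not overlap, as was true of 30.7% of all tested genes.

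**Figure D1:**
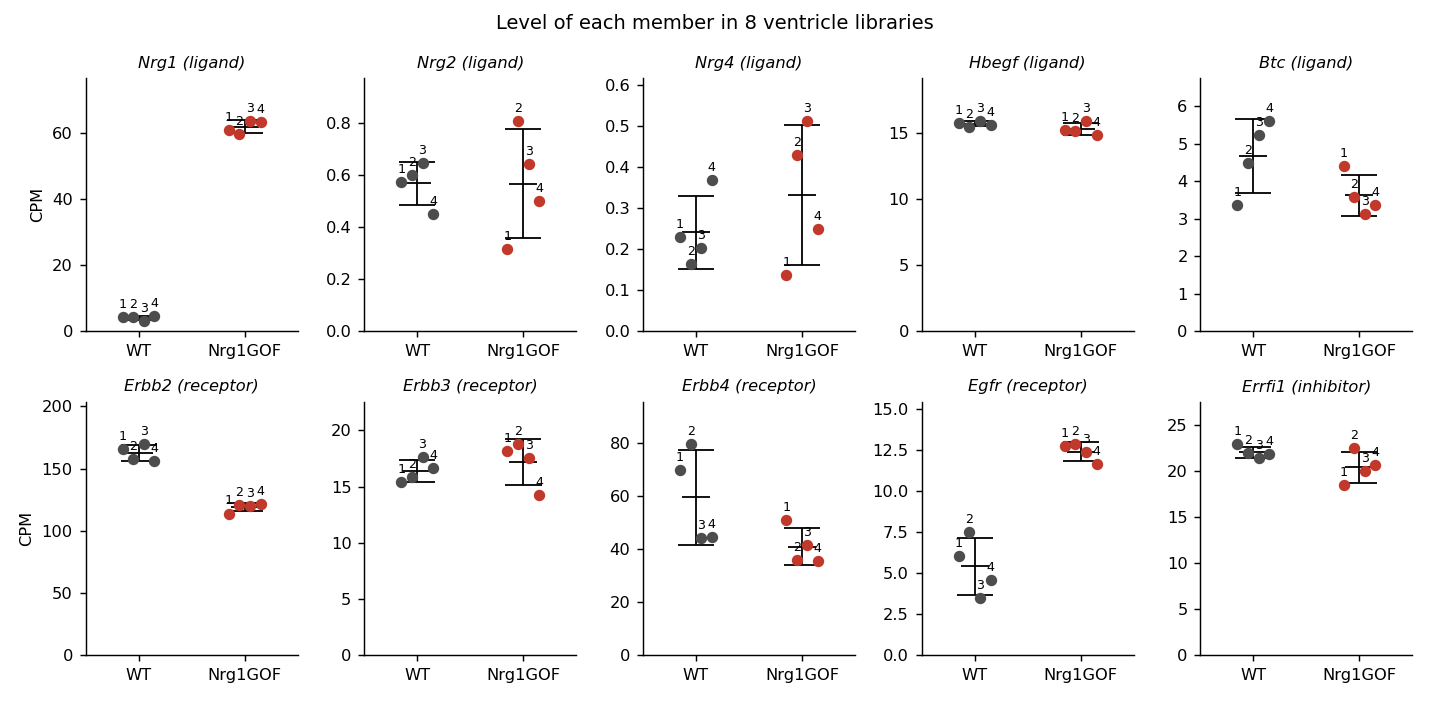
Level of each of the 10 members (CPM, linear axis from 0) in WT (grey) and *Nrg1GOF* (red) libraries, numbered by replicate, with bars for the mean ± SD of 4 libraries. The groups are separate for *Nrg1*, *Erbb2* and *Egfr*, and *Erbb4* shows WT libraries 1 and 2 above the other libraries.

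The ligands were compared first. *Nrg1* (ENSMUSG00000062991, GRCm38 chromosome 8, 31814551 to 32884029, minus strand), the ligand carried by the transgene, measured 60.7, 59.7, 63.7, 63.1 CPM across *Nrg1GOF* libraries 1 to 4, beside 4.17, 4.42, 3.07, 4.47 CPM across WT libraries 1 to 4. It was thus 15.4-fold higher in *Nrg1GOF* (log2 fold change 3.94, SE 0.10, edgeR quasi-likelihood adjusted p = 8.26e-08). The *Nrg1GOF* libraries lay close together, with an SD of 1.90 CPM around a mean of 61.8 CPM (n = 4), and far above all WT libraries. In WT the gene rested on 76 to 109 counts per library, and in *Nrg1GOF* on 505 to 1489.

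The counts do not tell which form of *Nrg1* was present. The count table assigns 18 transcripts to *Nrg1* in one sum. GENCODE M21, on the same build, lists 13 coding transcripts, which hold either of 2 versions of the EGF-like domain, the part of the ligand that binds the receptor. The stretch from the first to the last cysteine codon of this domain is shown for the neuregulin-1 beta version, found in 8 of the 13, and for the alpha version, found in 5 of the 13, because the versions share their first exon and differ only in the second. The matching stretches of *Nrg4* and *Btc* are shown beside them. Sequences are written 5′ to 3′ on the coding strand, with the cysteine codons in capitals.
Nrg1 beta: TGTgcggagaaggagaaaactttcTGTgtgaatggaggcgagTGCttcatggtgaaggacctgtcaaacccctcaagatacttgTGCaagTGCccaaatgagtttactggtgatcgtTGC
Nrg1 alpha: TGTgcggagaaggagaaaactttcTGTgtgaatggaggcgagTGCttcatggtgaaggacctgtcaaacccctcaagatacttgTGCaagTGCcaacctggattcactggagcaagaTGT
Nrg4: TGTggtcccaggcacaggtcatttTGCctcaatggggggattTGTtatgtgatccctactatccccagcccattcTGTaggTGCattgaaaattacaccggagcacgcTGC
Btc: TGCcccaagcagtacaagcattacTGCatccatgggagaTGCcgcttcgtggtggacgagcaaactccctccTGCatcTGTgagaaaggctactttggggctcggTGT
These stretches each span 2 coding exons on the minus strand of GRCm38, at chr8:31837698-31849398 for the beta version, chr8:31838298-31849398 for the alpha version, chr9:55242177-55280969 for *Nrg4* and chr5:91362421-91366197 for *Btc*. A transgene of either version adds counts to the same row of the table as the endogenous gene.

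*Hbegf* (chromosome 18, 36504927 to 36515805), which encodes heparin-binding EGF, was the steadiest member. Its level was 15.2, 15.2, 15.95, 14.9 CPM across *Nrg1GOF* libraries 1 to 4, beside 15.7, 15.5, 15.9, 15.6 CPM across WT libraries 1 to 4. The ranges overlapped and the log2 fold change was -0.034 (SE 0.066, adjusted p = 0.745), with a 95% interval from -0.18 to 0.11.

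*Btc*, which encodes betacellulin, measured 4.401, 3.57, 3.12, 3.38 CPM across *Nrg1GOF* libraries 1 to 4, beside 3.36, 4.47, 5.22, 5.61 CPM across WT libraries 1 to 4. WT library 1 lay within the range of *Nrg1GOF*, and WT libraries 2, 3 and 4 lay above all *Nrg1GOF* libraries. The log2 fold change of -0.36 (SE 0.19, adjusted p = 0.201) did not pass the test, and its 95% interval ran from -0.79 to 0.072. It was -0.10 with WT libraries 1 and 2 as the controls (adjusted p = 0.796) and -0.57 with WT libraries 3 and 4 (adjusted p = 0.0510), and the pairs of WT libraries did not overlap.

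The other neuregulins were near the limit of detection. *Nrg2* was at 0.318 to 0.810 CPM in *Nrg1GOF* and 0.451 to 0.647 CPM in WT, on 4 to 17 counts per library. Its log2 fold change of 0.019 (SE 0.33, adjusted p = 0.975) had a 95% interval from -0.72 to 0.76, so a change of up to about that size was not detectable at this depth. *Nrg4* rested on 2 to 12 counts per library, at 0.136 to 0.513 CPM in *Nrg1GOF* and 0.164 to 0.369 CPM in WT. Of the 60-base windows of *Nrg4* transcripts, the length of the reads, 5.64% also occur on the opposite strand in transcripts of other genes, among them *Fbxo22* at 36.6 to 45.3 CPM. Since no source used here says whether counting used strand, reads of the opposite strand cannot be told apart from *Nrg4* at this level.

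The make-up of the ligand pool differed between the groups. Per kilobase of merged exons, *Nrg1* made up 8.0% ± 1.4 (SD, n = 4) of the summed level of the 5 ligands in WT and 58.7% ± 1.2 (SD, n = 4) in *Nrg1GOF*. *Hbegf* made up 66.5% ± 3.0 in WT and 31.1% ± 0.53 in *Nrg1GOF*. With the longest transcript as the length, the share of *Nrg1* was 9.8% in WT and 63.6% in *Nrg1GOF*. Both lengths are those of the endogenous gene. The length of the transgene transcript was not known, and a shorter one would give *Nrg1* a larger share in *Nrg1GOF*.

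The receptors were next compared. *Erbb2* (ENSMUSG00000062312, chromosome 11, 98412470 to 98437716, plus strand), the shared partner of the family, measured 114, 120, 120, 121 CPM across *Nrg1GOF* libraries 1 to 4, beside 166, 158, 170, 156 CPM across WT libraries 1 to 4. All *Nrg1GOF* libraries lay below all WT libraries. *Erbb2* fell by 26.8% (log2 fold change -0.45, SE 0.050, adjusted p = 0.000184). The WT mean was 162 ± 6.30 CPM and the *Nrg1GOF* mean 119 ± 3.45 CPM (SD, n = 4 each). The annotation places exons of *Mien1* on the opposite strand at this locus, but no 60-base window of *Erbb2* transcripts occurs in another gene, and *Mien1* had a log2 fold change of -0.0011 (adjusted p = 0.994).

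The fall of *Erbb2* stood beside lower levels of ventricular cardiomyocyte markers, and in bulk tissue fewer cells of a type cannot be told apart from less RNA per cell. Per 1000 CPM of the summed ventricular markers, *Erbb2* was at 3.15 to 3.93 CPM in *Nrg1GOF* and 3.63 to 3.98 CPM in WT, so that the groups overlapped on this scale. Per 1000 CPM of *Tnnt2*, the cardiac troponin T gene, it was at 25.1 to 31.1 CPM in *Nrg1GOF* and 28.3 to 34.2 CPM in WT, and the groups overlapped again. The log2 fold changes of the 7 markers ran from -1.82 (*Hey2*) to 0.0012 (*Actc1*), with *Tnnt2* at -0.32. The overlap therefore depends on the marker chosen, and *Actc1* did not change (edgeR quasi-likelihood adjusted p = 0.992). The part of the cardiomyocyte markers in the fall of *Erbb2* was not tested.

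*Egfr* (ENSMUSG00000020122, chromosome 11, 16752203 to 16918158, plus strand), the receptor of EGF and related ligands, was the receptor that rose. It measured 12.8, 12.9, 12.4, 11.6 CPM across *Nrg1GOF* libraries 1 to 4, beside 6.04, 7.53, 3.48, 4.55 CPM across WT libraries 1 to 4. The *Nrg1GOF* libraries clustered closely and all lay above the WT libraries, which were more spread. *Egfr* was 2.32-fold higher (log2 fold change 1.21, SE 0.20, adjusted p = 0.00178). WT had a mean of 5.398 ± 1.77 CPM and *Nrg1GOF* of 12.4 ± 0.56 CPM (SD, n = 4). It was called against either pair of WT libraries alone, with a log2 fold change of 0.88 (adjusted p = 0.00312) against WT libraries 1 and 2 and of 1.64 (adjusted p = 0.000199) against WT libraries 3 and 4.

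Fibroblast and cushion mesenchyme markers moved with *Egfr*. Their summed level was 5747 to 7490 CPM in *Nrg1GOF* and 3217 to 4354 CPM in WT, and the median log2 fold change of the 6 markers was 0.83. Per 1000 CPM of these summed markers, *Egfr* was at 1.66 to 2.03 CPM in *Nrg1GOF* and 1.08 to 1.73 CPM in WT, where WT library 2 reached into the range of *Nrg1GOF*. Per 1000 CPM of *Pdgfra*, which encodes a receptor of mesenchymal cells, *Egfr* was at 77.3 to 94.1 CPM in *Nrg1GOF* and 62.7 to 91.5 CPM in WT. The groups overlapped on both scales. The log2 fold changes of the 6 markers ran from 0.63 (*Dcn*) to 1.26 (*Tcf21*), with *Pdgfra* at 1.04, so the overlap depends on the marker chosen. The part of these markers in the rise of *Egfr* was not tested.

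**Figure D2:**
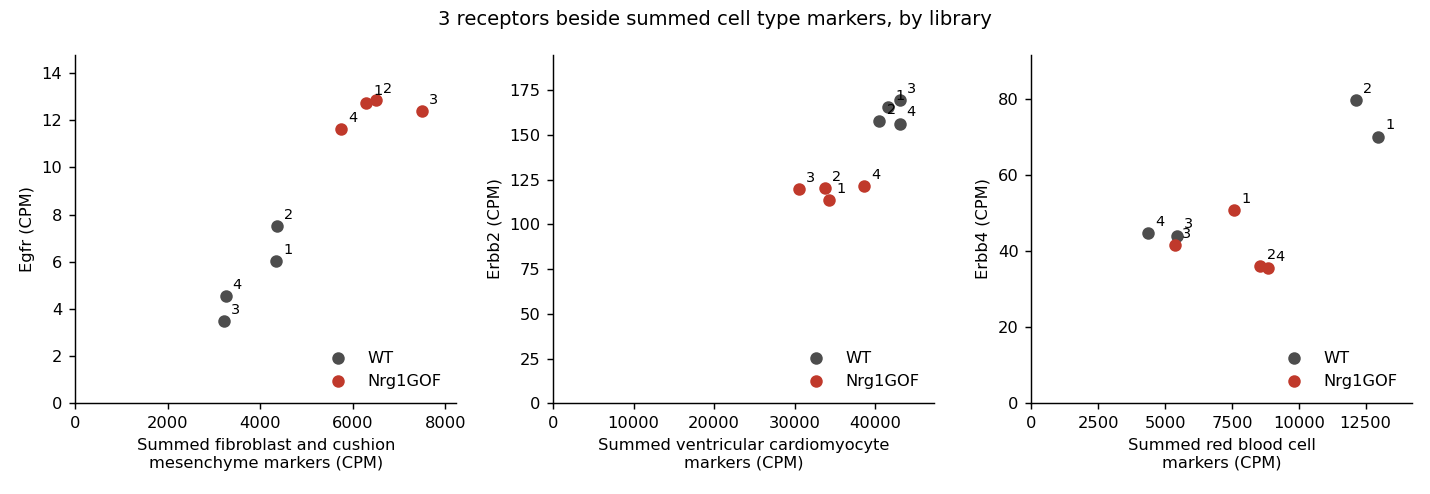
*Egfr* (left), *Erbb2* (middle) and *Erbb4* (right) in CPM against the summed CPM of a cell type's markers in the same library, with WT in grey, *Nrg1GOF* in red and replicate numbers beside the points, on linear axes from 0. *Egfr* and the fibroblast and mesenchyme markers are both higher in *Nrg1GOF*, *Erbb2* and the ventricular markers are both lower, and WT libraries 1 and 2 are high in both *Erbb4* and red blood cell markers.

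*Erbb4* (ENSMUSG00000062209, chromosome 1, 68032186 to 69108059, minus strand), the receptor that binds neuregulin-1 in cardiomyocytes, measured 50.9, 36.0, 41.7, 35.5 CPM across *Nrg1GOF* libraries 1 to 4, beside 70.1, 79.7, 44.1, 44.8 CPM across WT libraries 1 to 4. WT libraries 1 and 2 lay above all others, whereas WT libraries 3 and 4 lay within the range of *Nrg1GOF*. The log2 fold change of -0.53 (SE 0.20) was larger than that of *Erbb2*, but the spread within WT was wider, with SDs of 18.0 CPM for *Erbb4* and 6.30 CPM for *Erbb2*, and *Erbb4* did not pass the test (adjusted p = 0.0786, 95% interval -0.98 to -0.077).

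The value of *Erbb4* depended on which WT libraries it was set against. Against WT libraries 1 and 2 alone it was lower by a log2 fold change of -0.86 (adjusted p = 0.00334), and against WT libraries 3 and 4 alone the difference was -0.098 (adjusted p = 0.631). It was also called without WT library 3 (adjusted p = 0.0379), without WT library 4 (adjusted p = 0.0436), with DESeq2 (adjusted p = 0.0278) and with the likelihood ratio test of edgeR (adjusted p = 0.0352). *Erbb4* was not called with limma-voom (adjusted p = 0.122), without WT library 1 or 2, or without any 1 *Nrg1GOF* library. The WT pairs differ in red blood cell markers and in fibroblast and cushion mesenchyme markers, among others. The part of these markers in the level of *Erbb4* was not tested. Per 1000 CPM of the summed ventricular markers, *Erbb4* was at 0.920 to 1.48 CPM in *Nrg1GOF* and 1.02 to 1.97 CPM in WT.

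*Erbb3* (chromosome 10, 128567523 to 128589652, minus strand), which binds neuregulins and is known in the embryonic heart from cushion mesenchyme and from cells of the neural crest, measured 18.2, 18.8, 17.6, 14.3 CPM across *Nrg1GOF* libraries 1 to 4, beside 15.4, 15.9, 17.6, 16.6 CPM across WT libraries 1 to 4. *Nrg1GOF* library 4 was the lowest of the 8 and *Nrg1GOF* libraries 1 and 2 lay above the WT range, which included *Nrg1GOF* library 3. The log2 fold change of 0.083 (SE 0.094, adjusted p = 0.561) had a 95% interval from -0.13 to 0.29. Leaving out 1 library gave 0.039 (without *Nrg1GOF* library 2) to 0.16 (without *Nrg1GOF* library 4, adjusted p = 0.165), none of them called. *Erbb3* was thus not detectably changed in libraries in which fibroblast and mesenchyme markers rose.

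Ratios of the receptors within a library do not depend on how libraries are scaled and were compared by exact permutation of the 8 libraries, two-sided and adjusted over the 6 pairs. The smallest p that 4 against 4 libraries allow is 0.0286. The ratio of *Erbb4* to *Egfr* was 2.80 to 3.99 in *Nrg1GOF* and 9.85 to 12.7 in WT, and that of *Erbb2* to *Egfr* was 8.93 to 10.4 and 21.0 to 48.7. The ratio of *Erbb3* to *Egfr* was 1.23 to 1.46 in *Nrg1GOF* and 2.11 to 5.06 in WT. The ratio of *Erbb2* to *Erbb3* also separated the groups, at 6.25 to 8.52 in *Nrg1GOF* and 9.40 to 10.8 in WT. Each of these 4 ratios was lower in *Nrg1GOF*, with an exact p of 0.0286 and an adjusted p of 0.0429. The ratios to *Egfr* share its rise and are not separate results. *Erbb2* and *Egfr* each separated the groups, in opposite directions, so the separation of their ratio was fixed in advance. With any 1 library left out, the smallest p that the 35 assignments allow is again 0.0286 before adjustment. None of the 4 was called in these settings, at exact adjusted p of 0.0571 to 0.0857. The 4 differences kept their direction, with *Erbb4* to *Egfr* at -1.86 to -1.69 on the log2 scale beside -1.77 with all libraries and *Erbb2* to *Erbb3* at -0.61 to -0.46 beside -0.51.

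*Erbb2* and *Erbb4*, the pair through which cardiomyocytes receive neuregulin-1, were not shown to change by different amounts. Their ratio was 2.24, 3.34, 2.88 and 3.42 in *Nrg1GOF* libraries 1 to 4 and 2.36, 1.98, 3.85 and 3.49 in WT libraries 1 to 4. It differed by 0.058 on the log2 scale (exact permutation adjusted p = 0.886), beside SDs of 0.28 in *Nrg1GOF* and 0.45 in WT (n = 4 each), so an unequal change of moderate size could not have been seen. The ratio of *Erbb3* to *Erbb4* was higher in *Nrg1GOF* by 0.57 on the log2 scale and did not pass (exact permutation adjusted p = 0.137).

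*Errfi1* (ENSMUSG00000028967, chromosome 4, 150853919 to 150868892, plus strand) encodes MIG6, a protein that binds the kinase domain of active ErbB receptors, blocks it and is known as a gene induced by EGF signals. It measured 18.5, 22.5, 19.97, 20.6 CPM across *Nrg1GOF* libraries 1 to 4, beside 22.9, 21.9, 21.5, 21.8 CPM across WT libraries 1 to 4. *Nrg1GOF* libraries 1, 3 and 4 lay below all WT libraries and *Nrg1GOF* library 2 lay within their range. The log2 fold change was -0.11 (SE 0.073, adjusted p = 0.291), and its 95% interval from -0.28 to 0.051 leaves out a rise of more than 0.051 on the log2 scale.

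**Figure D3:**
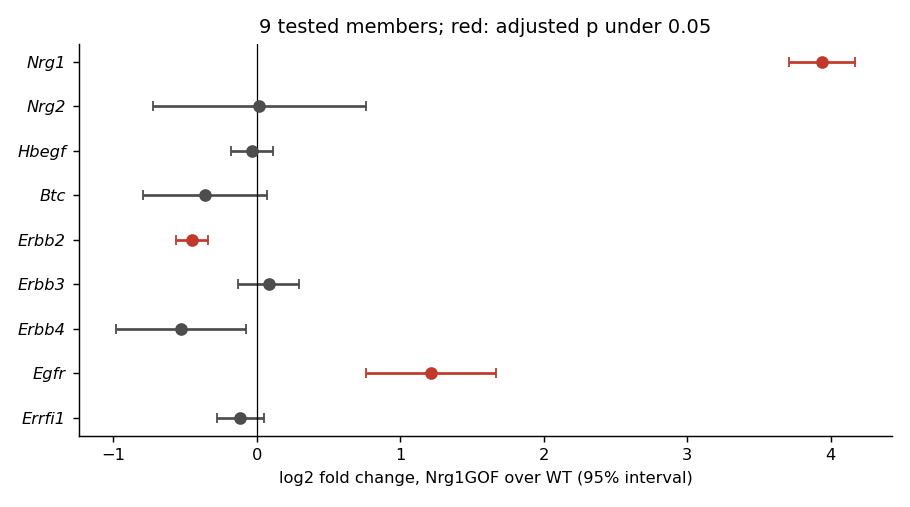
Log2 fold change of *Nrg1GOF* over WT for the 9 tested members, with 95% intervals from the edgeR fit of 8 libraries and red for an adjusted p under 0.05. *Nrg1* (3.94) and *Egfr* (1.21) lie to the right of 0 and *Erbb2* (-0.45) to the left, and the intervals of the others include 0 except that of *Erbb4*, which was not called after adjustment.

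Levels can be set against each other only per length, here as CPM per kilobase of merged exons. In WT, *Erbb2* ranked first at 31.1 ± 1.2 (SD, n = 4), followed by *Errfi1* at 6.15 ± 0.17, *Erbb4* at 4.83 ± 1.5, *Hbegf* at 3.25 ± 0.039, *Erbb3* at 2.72 ± 0.16, *Btc* at 1.03 ± 0.22, *Egfr* at 0.477 ± 0.16, *Nrg1* at 0.389 ± 0.063, *Nrg2* at 0.181 ± 0.027 and *Nrg4* at 0.040 ± 0.015. Among neighbours in this order, the ranges of *Errfi1* and *Erbb4* overlapped, as did those of *Egfr* and *Nrg1*. With the longest transcript as the length, *Hbegf* moved above *Erbb4* and *Nrg1* moved above *Egfr*.

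In *Nrg1GOF*, *Nrg1* moved from eighth to second place, at 5.97 ± 0.18 CPM per kilobase, behind *Erbb2* at 22.8 ± 0.66 and beside *Errfi1* at 5.70 ± 0.46, whose range included that of *Nrg1*. This place rests on the length of the endogenous gene. The length of the transgene transcript was not known, and a shorter one would raise the level of *Nrg1*. With the longest transcript as the length, *Nrg1* was at 11.4 and *Errfi1* at 6.71, and *Hbegf* at 5.30 stood above *Erbb4* at 3.41 CPM per kilobase. *Erbb4* at 3.32 ± 0.58 overlapped with *Hbegf* at 3.17 ± 0.094, and *Hbegf* with *Erbb3* at 2.86 ± 0.34. *Egfr* at 1.096 ± 0.049 stood above *Btc* at 0.800 ± 0.12 with no overlap, the reverse of their order in WT. On these lengths, *Nrg1* transcripts in WT were thus less abundant than those of its receptors *Erbb3* and *Erbb4*, and in *Nrg1GOF* they were more abundant than either.

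**Figure D4:**
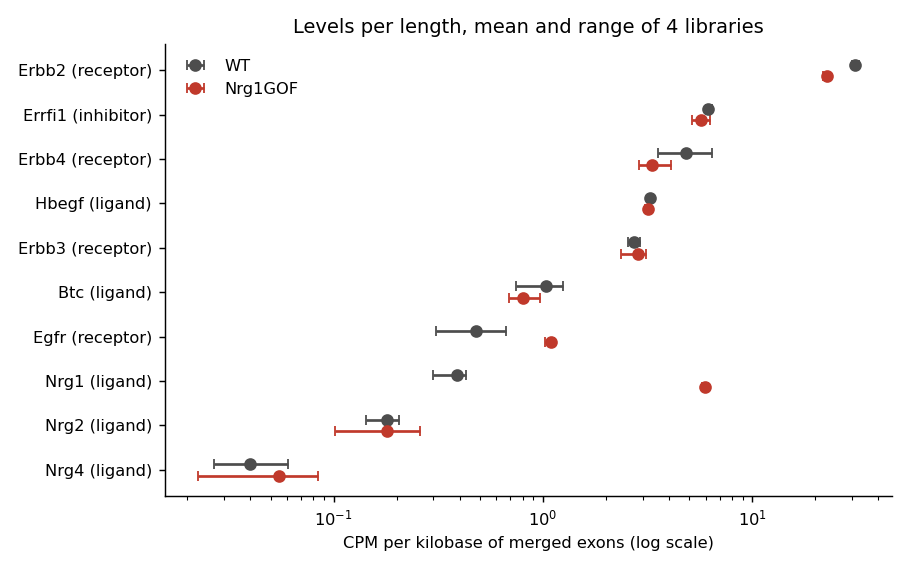
Level per length (CPM per kilobase of merged exons, log scale) of the 10 members in WT (grey) and *Nrg1GOF* (red), with points for the mean and bars for the range of 4 libraries. *Nrg1* moves from 0.389 to 5.97 and *Egfr* from 0.477 to 1.096, and the other members differ by a smaller fold. The length used for *Nrg1* is that of the endogenous gene in both groups.

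Within the receptor pool per length, *Erbb2* held 79.6% ± 3.2 in WT and 75.8% ± 2.6 in *Nrg1GOF* (SD, n = 4 each). *Erbb4* held 12.3% ± 3.4 and 11.03% ± 1.9, and *Erbb3* held 7.0% ± 0.61 and 9.5% ± 1.0. *Egfr* held 1.2% ± 0.37 in WT and 3.6% ± 0.13 in *Nrg1GOF*. It remained the least abundant receptor in both groups despite its rise.

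The 3 protein-coding genes whose profile over the 8 libraries lay closest to that of *Nrg1* were *Moxd1*, *Gdf15* and *Nppa*, at Euclidean distances of 1.99, 2.04 and 2.08 between log2 CPM centred on the mean of each gene. Their log2 fold changes were 2.53 (SE 0.23) for *Moxd1*, 3.06 (SE 0.22) for *Gdf15* and 2.48 (SE 0.16) for *Nppa*, which encodes atrial natriuretic peptide. None reached the 3.94 of *Nrg1*. The distance depends on the size of the difference between the groups and on the 0.5 CPM added before the logarithm.

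Other genes of the pathway were then read from the same fit in 5 lists. Of 6 further EGF-family ligands, 2 passed the filter. *Egf* was lower in *Nrg1GOF*, at 1.38 to 1.86 CPM against 2.67 to 4.02 CPM in WT (log2 fold change -0.88, SE 0.20, adjusted p = 0.00935), and was not called against WT libraries 1 and 2 alone. *Tgfa*, which encodes another EGFR ligand, was at 10.9 to 13.2 and 11.3 to 13.9 CPM (adjusted p = 0.756). *Areg*, *Ereg*, *Epgn* and *Nrg3* were each below 0.56 CPM in every library, and *Nrg3* had no counts in WT. *Ereg*, at 0.286 to 0.556 CPM in *Nrg1GOF* and 0.041 to 0.273 CPM in WT, did not overlap between the groups but did not pass the filter. With no filter on low counts it was not called (edgeR quasi-likelihood adjusted p = 0.0573), and it was called higher when only WT libraries 3 and 4 served as controls (adjusted p = 0.0196).

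Of 9 genes for proteases and cofactors that shed these ligands, 4 were called, all higher (44.4%), where 28.7% of all tested genes were called and 15.9% were called higher. The median log2 fold change was 0.25, beside -0.012 for all tested genes. All 6 fibroblast and mesenchyme markers (median log2 fold change 0.83) and all 6 macrophage markers (median 0.96) were also called higher, and their part in the sheddase levels was not tested. *Adam9*, a membrane metalloprotease, rose from a WT mean of 121 ± 6.32 CPM to 224 ± 17.5 CPM (SD, n = 4). Its log2 fold change was 0.89, with an SE of 0.068 and an adjusted p of 3.07e-05. *Adam12*, which can release heparin-binding EGF, rose by 0.62 (SE 0.11, adjusted p = 0.00195). *Bace1*, a protease that cleaves neuregulin-1 in nerves, rose by 0.30 (SE 0.075, adjusted p = 0.0142), and *Adam19* by 0.25 (SE 0.054, adjusted p = 0.00695). With only WT libraries 1 and 2 as controls, *Bace1* (adjusted p = 0.104) and *Adam19* (adjusted p = 0.0763) were not called, and *Adam19* was also not called with the WT libraries summed in pairs (adjusted p = 0.0512). The main sheddases of the family were not called, with a log2 fold change of 0.20 for *Adam10* (adjusted p = 0.0877) and of -0.032 for *Adam17* (adjusted p = 0.714). *Adam10* was called higher in 4 of 22 other fits. These were scaled by library total (adjusted p = 0.0322), with a replicate block (adjusted p = 0.0229), without *Nrg1GOF* library 3 (adjusted p = 0.0480) and with only WT libraries 3 and 4 as controls (adjusted p = 0.0223).

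Of 19 tested genes among 20 adaptors and members of the Ras-MAPK cascade, 2 were called higher and 3 lower (26.3% in all, near the 28.7% of all tested genes), with a median log2 fold change of -0.020. *Gab1*, an adaptor that links receptors to SHP2 and PI3-kinase, fell by 0.56 on the log2 scale (SE 0.043, adjusted p = 3.07e-05), with a WT mean of 184 ± 0.85 CPM and an *Nrg1GOF* mean of 125 ± 2.63 CPM (SD, n = 4 each). *Grb2*, the adaptor that recruits SOS to receptors, fell by 0.14 (SE 0.045, adjusted p = 0.0487), a call at the threshold that was lost in 18 of 22 other fits, among them all 8 that left out 1 library. *Shc1*, an adaptor that docks directly on ErbB receptors, rose by 0.33 (SE 0.046, adjusted p = 0.000611). *Mapk3*, which encodes a MAP kinase, had a log2 fold change of 0.14 and was not called (adjusted p = 0.107), nor was it in 21 of 22 other fits.

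Of 20 genes of the PI3-kinase and Akt branch, 1 was called higher and 2 lower (15%, below the 28.7% of all tested genes), with a median log2 fold change of -0.048. *Mtor*, the kinase of both TOR complexes, fell by 0.31 (SE 0.073, adjusted p = 0.00996) and *Akt1* fell by 0.23 (SE 0.052, adjusted p = 0.00876). *Foxo1*, a transcription factor that Akt keeps out of the nucleus, rose by 0.33 (SE 0.064, adjusted p = 0.00383). Of 14 negative regulators and scaffolds of ErbB receptors, 1 was called (7.14%, again below that share), the ubiquitin ligase *Wwp1*, which rose by 0.27 (SE 0.068, adjusted p = 0.0152). Neither *Akt1* nor *Wwp1* was called with only WT libraries 1 and 2 as controls (adjusted p = 0.0636 and 0.125) or with the WT libraries summed in pairs (adjusted p = 0.0827 and 0.0869). *Lrig1*, a transmembrane inhibitor of ErbB receptors, was at 45.5 to 54.1 CPM in *Nrg1GOF* and 53.2 to 55.3 CPM in WT (adjusted p = 0.235), and *Rnf41*, the ubiquitin ligase of ErbB3, at 31.7 to 39.1 and 31.3 to 33.9 CPM (adjusted p = 0.292).

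**Figure D5:**
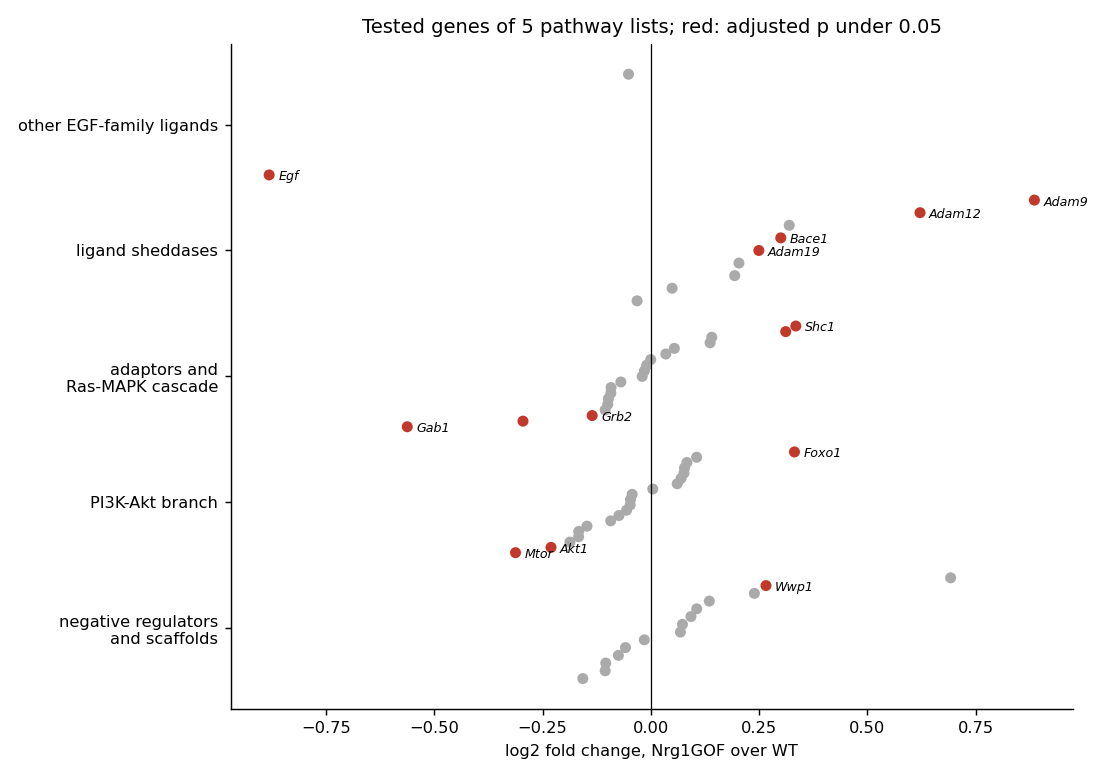
Log2 fold change of *Nrg1GOF* over WT for the tested genes of 5 pathway lists, with 1 point per gene, red where the adjusted p was under 0.05, with the genes given in the text named (vertical position within a list only spreads the points). The 4 called sheddase genes lie to the right of 0, *Egf* lies at -0.88, and in the 3 lists of signalling genes the points gather around 0 with called genes up to 0.33 and down to -0.56.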

How the data were processed

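The authors deposited RSEM expected counts per Ensembl gene, made on GRCm38 with Ensembl release 91. The labels name RSEM 1.3.1 and cutadapt for directional poly(A) libraries sequenced as single reads of 60 bases. The aligner and strand setting were not given in the sources used here. Expected counts were rounded, since 8.4% to 13.2% per library had decimals. Genes were kept with filterByExpr, scaled by TMM and tested with the quasi-likelihood F-test of edgeR 4.0.16 (R 4.3.3) with genotype as the only term, all 8 libraries and Benjamini-Hochberg adjustment over 15580 genes. SEs were derived from the log2 fold change and its F statistic, and 95% intervals from the t distribution. Alternatives were DESeq2 1.42.0, limma 3.58.1 (voom), the likelihood ratio test, other scalings, filters and thresholds, unrounded counts, a replicate block, thinning, summed or single WT pairs and leaving out each library.

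Groups and replicate numbers came from sample titles, and nothing there says that samples are separate litters, so p-values measure the spread between these samples. All 10 members are named, with up to 3 called genes per direction from each list, the 3 profiles nearest to *Nrg1* and marker lists. *Adam19* and the members of lists named without a call were added after their values were seen. A few pathway genes are not reported here. The members, lists and alternatives were chosen with earlier results of these data known. Ratios to cell type markers and the count of shared windows of 60 bases were added after the data were seen. Symbols, coordinates, lengths and sequences came from GENCODE M21 (GRCm38), a later release than that of the counts. A count of 3 stands for 0.112 to 0.373 CPM of the unscaled total. This floor covers counting error only, since reads had no molecular identifiers.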

Additional observations from a re-analysis of the deposited data

Results flagged for a closer look

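Of 34 groups of 4 values tested for a library far from the others (Dixon's test on library totals, the 10 members and the 6 receptor ratios), 1 held such a library, where chance at 1 in 20 gives 1.7. The total of *Nrg1GOF* library 4 was 8038641 counts, beside 20578081 to 22547833 counts in the other *Nrg1GOF* libraries, a gap of 0.864 of the range. Without it, the same 3 members were called, and *Erbb4* had an adjusted p of 0.172 (edgeR quasi-likelihood test).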

How the results depend on the processing

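*Nrg1*, *Egfr* and *Erbb2* were called in every other fit listed under the methods, except that *Erbb2* missed a minimum log2 change of 1. Over all settings 2 to 4 members were called, the added one being *Erbb4*. *Nrg2* changed sign with limma-voom (-0.032), the replicate block (-0.062), WT libraries 1 and 2 as controls (-0.031) and leaving out 1 library (-0.22 to 0.24), as did *Hbegf* scaled by library total (0.010) or thinned (0.057), and neither was called. Genes called numbered 2464 with WT libraries summed in pairs, 2535 at an adjusted p of 0.01 and 724 at a minimum log2 change of 1. Negative regulators called numbered 2 with the likelihood ratio test, limma-voom or library totals, 3 against WT libraries 3 and 4, and 0 against WT libraries 1 and 2, with summed pairs or at either stricter threshold. With summed pairs 3 sheddases and 2 genes of the Akt branch were called. Adaptors numbered 2 with summed pairs and 3 against WT libraries 1 and 2, and other ligands 0 against WT libraries 1 and 2 and 2 against WT libraries 3 and 4. At a minimum log2 change of 1, no gene of the 5 pathway lists was called (0 each). The causes were not tested.

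With summed WT pairs the log2 differences were -0.52 (*Erbb2*/*Erbb3*), -1.72 (*Erbb2*/*Egfr*), -1.20 (*Erbb3*/*Egfr*) and -1.76 (*Erbb4*/*Egfr*), each at an exact adjusted p of 0.1, with fewer samples. Leaving out 1 library gave -0.61 to -0.46, -1.90 to -1.50, -1.39 to -0.97 and -1.86 to -1.69, and -0.11 to 0.21 for *Erbb2*/*Erbb4*, which changed sign, and 0.40 to 0.74 for *Erbb3*/*Erbb4*. It gave 3239 to 4261 genes, 3 to 4 members, 4 to 5 sheddases, 4 adaptors, 3 genes of the Akt branch, 1 to 2 negative regulators and 1 other ligand.

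Same-numbered libraries deviated together with correlations of 0.062 to 0.229, not all over 0.1, so the numbers were not taken as pairs. With the replicate block 4524 genes were called, 7 sheddases, and *Erbb4* (adjusted p = 0.0401). Depth limits *Nrg2* and *Nrg4*, which rested on at most 17 counts.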
